A study of Rattus norvegicus with 8 samples.

Results

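The 40 genes described here carry fatty acids into the cardiomyocyte, oxidize them in the mitochondrion, store them in lipid droplets or use ketone bodies. They were taken by symbol from the deposited transcript table, and the transcripts of each gene were summed. Of the 40 genes, 39 were measured, out of 12784 genes in the table, and all 39 passed the filter on low values, averaging 0.5 FPKM or more across the 8 libraries. FPKM scales the sequenced fragments of a transcript by its length and by the size of the library, so that levels of different genes can be set side by side. Ucp3, a mitochondrial carrier of skeletal muscle, was not analysed here.

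The adult heart draws most of its energy from fatty acids. Lipoprotein lipase frees them from circulating triglyceride, membrane and binding proteins bring them in, an acyl-CoA synthetase activates them, and the carnitine shuttle carries them across the mitochondrial membranes. Beta-oxidation then removes acetyl-CoA in repeated rounds of dehydrogenation, hydration, dehydrogenation and thiolysis, while the electron transfer flavoprotein passes electrons to the respiratory chain. The newborn ventricle relies more on glucose and lactate, and many of these genes are switched on after birth by the nuclear receptors PPARα and the estrogen-related receptors.

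Neonatal rat ventricular cardiomyocytes (NRVCMs) came from pups 1 to 2 days old, which the methods call Wistar and the reporting summary calls Sprague Dawley, and were separated from fibroblasts on a Percoll gradient. After 24 h in culture they received an adenovirus for 72 h in medium depleted of serum, either with LacZ, a bacterial enzyme that served as the control, or with HectD3, a HECT-type E3 ubiquitin ligase. There were 4 RNA-seq libraries of each virus and no library without virus, so an effect of the virus itself, which both groups share, was not measured. Nothing states that the libraries of a group came from separate isolations, so p-values measure the spread between these libraries, which may be technical. In a culture as a whole, fewer cells of a type and less RNA per cell cannot be told apart.

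Hectd3, the overexpressed gene, was at 6.18 to 7.89 FPKM in the LacZ libraries and at 161 to 915 FPKM in the HectD3 libraries, the lowest in HectD3 4 (log2 difference 5.86, standard error 0.44, adjusted p = 0.00292 from limma). On the first principal component of all genes, with 58.4% of the variance, LacZ 1 (-40.8), LacZ 2 (-27.1) and HectD3 4 (-13.4) lay apart from the other 5 libraries, which lay between 9.01 and 18.8. Cardiomyocyte markers summed to 13800 to 16300 FPKM with LacZ and 13640 to 16510 FPKM with HectD3, and all 10 were detected. Nppa, Myl2, Actn2 and Tnnt2 were lowest in LacZ 1, LacZ 2 and HectD3 4, and Tnni3 and Pln were highest there. Myh6, Myh7, Ryr2 and Myl3 had other orders. Nppa was at 748, 593 and 525 FPKM in LacZ 1, LacZ 2 and HectD3 4 and at 852 to 2110 FPKM in the other 5 libraries. Of the markers of other cells, those of fibroblasts (8 of 9 measured) summed to 2326 to 2673 and 2438 to 2755 FPKM, those of endothelium (6 of 7) to 72.1 to 91.0 and 81.3 to 98.9 FPKM, and those of macrophages (6 of 7) to 76.4 to 102 and 83.1 to 110 FPKM. The 5 smooth muscle markers summed to 1579 FPKM in LacZ 1, 2168 FPKM in LacZ 2 and 1899 FPKM in HectD3 4, and to 2587 to 3652 FPKM in the other 5 libraries. Most of this sum was Acta2 and Tagln, which, like Cnn1, were lowest in LacZ 1, LacZ 2 and HectD3 4. Myh11 was instead highest in LacZ 2 (34.8 FPKM) and LacZ 1 (23.7 FPKM), and Mylk was highest in LacZ 2 (16.5 FPKM). HectD3 4 was the lowest library in both, at 15.8 FPKM of Myh11 and 5.55 FPKM of Mylk. LacZ 1 was the next lowest in Mylk, at 12.9 FPKM. Of the adipocyte markers only Fabp4, which endothelium also makes, was measured, at 50.3 to 64.5 FPKM with LacZ and 60.2 to 72.3 FPKM with HectD3. At an unadjusted p under 0.05 in limma, 4.28% of all genes were lower with HectD3 and 2.87% were higher. Of single markers, Myh6 and Myh7 of cardiomyocytes (2 of 10) and Myh11 of smooth muscle (1 of 5) were lower at this threshold. Emcn of endothelium (1 of 6), Vim of fibroblasts (1 of 8), Adgre1 of macrophages (1 of 6) and Fabp4 were higher, while 0 passed the adjusted p in limma. The groups did not overlap in Myh6 (206.8 to 239.6 FPKM with LacZ, 191.9 to 200.6 FPKM with HectD3), Myh7 (1631 to 2013 and 1514 to 1625 FPKM), Myh11 (23.1 to 34.8 and 15.8 to 22.9 FPKM), Emcn (25.1 to 29.4 and 29.5 to 37.9 FPKM) and Vim (591 to 709 and 719 to 803 FPKM). Over all genes, 2.81% were lower and 2.44% were higher with HectD3 without overlap of the groups. The part of these cell types in the results below was not tested.

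No fatty acid or ketone gene differed between HectD3 and LacZ at an adjusted p under 0.05 in limma, fitted over the 12567 genes tested. Over all of those genes 0% were lower and 0.00796% were higher at this threshold, the single call being Hectd3. At an unadjusted p under 0.05, 1 of the 39 genes was lower with HectD3, Bdh1, where 4.28% of all genes were, and 1 was higher, Ucp2, where 2.87% were. These are also the genes whose groups did not overlap, 1 lower against 2.81% of all genes and 1 higher against 2.44%. A single gene is 2.56% of the 39, close to or below each of these shares. The difference was below 0 for 26 of the 39 genes, 66.7%, beside 55.5% of all genes, and the median was -0.07 on the log2(FPKM + 1) scale (quartiles -0.22 and 0.05), beside -0.02 for all genes. The direction of this median rested on single libraries, since it was 0.05 without LacZ 1 and 0.04 without LacZ 2. Scaled to TPM, 2 genes were lower and 1 was higher at the unadjusted p, beside 5.85% and 1.38% of all genes. With median-ratio scaling 2 were lower and 2 higher, beside 4.33% and 3.28% of all genes.

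In most of these genes LacZ 1, LacZ 2 and HectD3 4 were the highest libraries. LacZ 1 and LacZ 2 both lay above LacZ 3 and LacZ 4 in 35 of the 39 genes, beside 48.1% of all genes, and HectD3 4 exceeded HectD3 1 to 3 in 31, beside 42% of all genes. In 28 of the 39 genes LacZ 1, LacZ 2 and HectD3 4 were the 3 highest libraries of the 8, beside 21.5% of all genes, and in 24 LacZ 1 and LacZ 2 were the highest pair, beside 24.5%. The highest LacZ library held at least 1.5 times the lowest in 23 of the genes, beside 39.6% of all genes, and the highest HectD3 library held at least 1.5 times the lowest in 16, beside 32.3%. The median of this ratio within LacZ was 1.66 for the 39 genes and 1.39 for all genes, and within HectD3 it was 1.33 and 1.35. As a share of all FPKM in the table, the 39 genes held 0.893% in LacZ 1, 0.923% in LacZ 2, 0.598% in LacZ 3 and 0.627% in LacZ 4, and 0.640%, 0.704%, 0.672% and 0.788% in HectD3 1 to 4. On the log2 scale, the median deviation of the 39 genes from their own means was 0.33 in LacZ 1 and 0.23 in HectD3 4. Over all genes it was 0.08 and 0.03. Rising and falling genes cancel in such a median, so it does not show how far all genes moved.

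**Figure D1:**
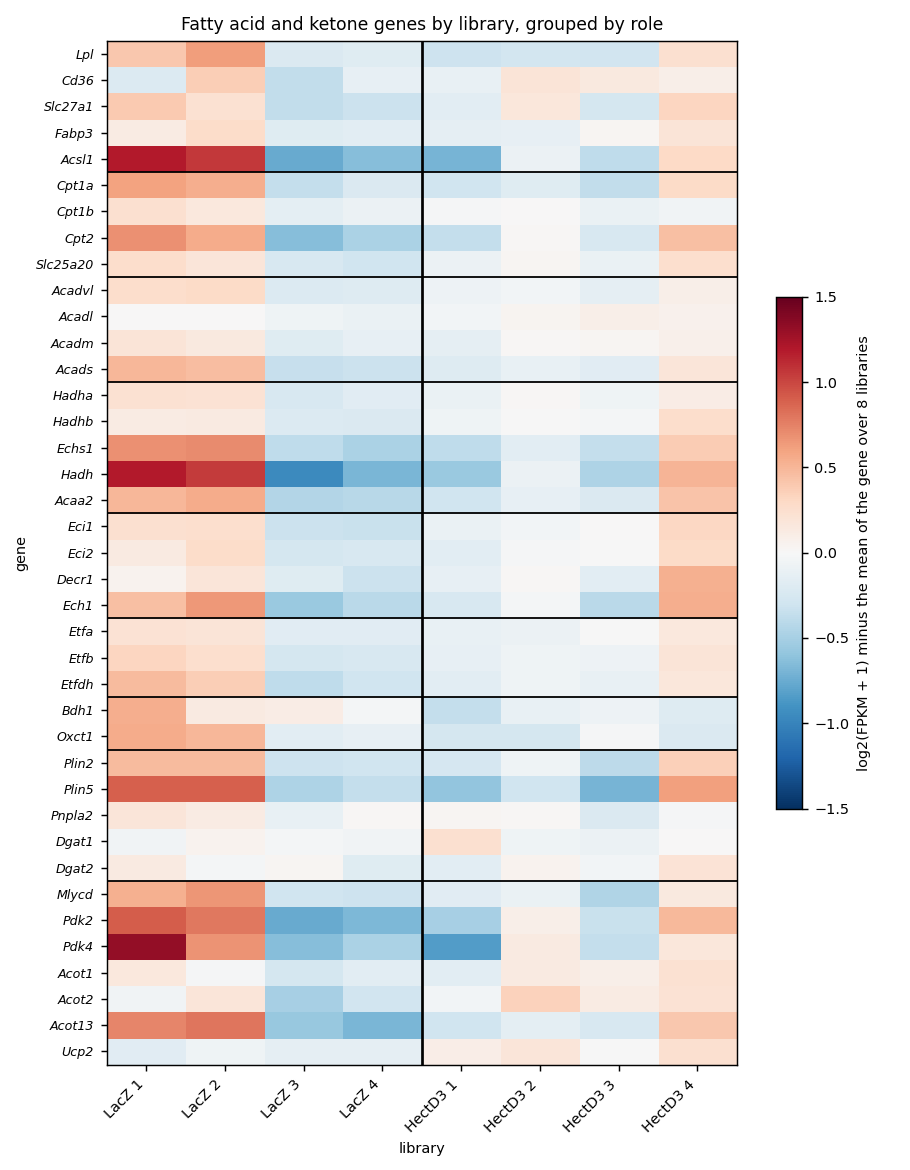
Each cell is log2(FPKM + 1) of a gene in a library minus the mean of that gene over the 8 libraries, with LacZ left and HectD3 right of the vertical line and horizontal lines between roles, from uptake at the top over the carnitine shuttle, dehydrogenases, later steps, auxiliary enzymes, electron transfer, ketone use and lipid droplets to fuel switching and related genes at the bottom. LacZ 1, LacZ 2 and HectD3 4 are the 3 highest libraries in 28 of 39 genes.

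Fatty acid uptake and binding were led by Fabp3, the heart fatty acid-binding protein of the cytosol, which was the most abundant of the 39 genes and higher than 99.4% of all genes tested. Fabp3 was at 942, 1045, 761 and 774 FPKM in LacZ 1 to 4 and at 788, 795, 881 and 987 FPKM in HectD3 1 to 4. The groups overlapped over nearly their whole range, and the means were 881 ± 137 and 863 ± 93.3 FPKM (SD, n = 4 each). Lpl, which encodes lipoprotein lipase, was at 145, 170, 94.4 and 96.5 FPKM with LacZ and at 88.3, 90.2, 89.4 and 129 FPKM with HectD3. HectD3 1 to 3 lay together just under the lowest LacZ library while HectD3 4 stood above LacZ 3 and LacZ 4, and the log2 difference was -0.32 (standard error 0.21, adjusted p = 0.728 from limma). Cd36, the fatty acid translocase of the plasma membrane, was at 155, 231, 139 and 165 FPKM with LacZ and at 166, 206, 199 and 190 FPKM with HectD3. It did not share the order of most of the genes, since LacZ 2 was the highest library and LacZ 1 the seventh of the 8, and its log2 difference was 0.16 (standard error 0.15, adjusted p = 0.764 from limma).

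Acsl1, the long-chain acyl-CoA synthetase that activates fatty acids for oxidation, spread over the widest range of the uptake genes. It lies on chromosome 16, spanning 48937456 to 49003246 in the deposited table, and its level was 145, 133, 37.0 and 40.2 FPKM in LacZ 1 to 4 and 38.5, 59.3, 48.1 and 77.6 FPKM in HectD3 1 to 4. The LacZ libraries thus fell into a high and a low pair that differed 3.91-fold from highest to lowest, and all HectD3 libraries lay between the pairs or within the low pair. Slc27a1, a fatty acid transport protein with synthetase activity, was far less abundant, at 6.13 to 11.1 FPKM with LacZ and 6.68 to 10.6 FPKM with HectD3.

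**Figure D2:**
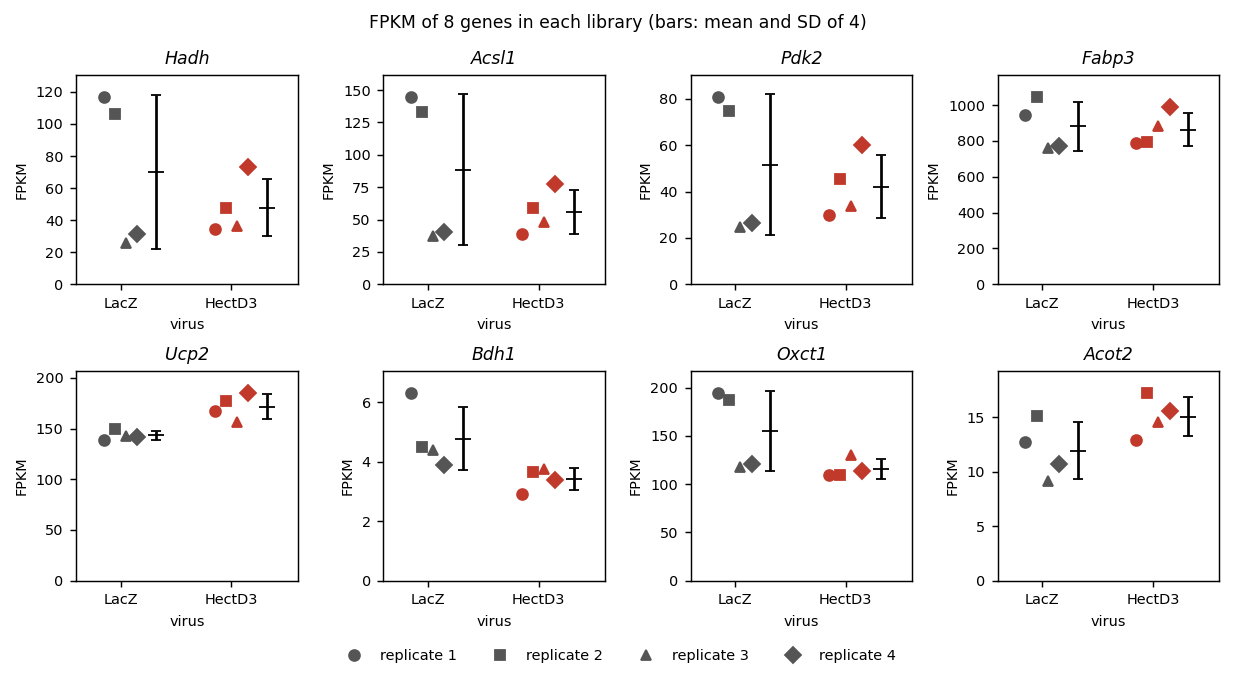
FPKM (vertical axes from 0) of 8 genes in each LacZ (grey) and HectD3 (red) library, with a marker for each replicate number and the mean and SD of 4 libraries beside them. Hadh, Acsl1 and Pdk2 split LacZ 1 and 2 from LacZ 3 and 4, while in Ucp2 the HectD3 libraries, at 156 to 185 FPKM, all lie above the LacZ libraries, at 138 to 150 FPKM.

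In the carnitine shuttle the muscle isoform of carnitine palmitoyltransferase 1, Cpt1b, was more abundant than the isoform of liver and fetal heart, Cpt1a. Cpt1b was at 98.5, 92.6, 75.0 and 78.0 FPKM with LacZ and at 82.4, 83.6, 77.4 and 80.0 FPKM with HectD3, a narrow range in which HectD3 4 did not stand out. Cpt1a was at 50.8, 48.8, 25.7 and 28.3 FPKM with LacZ and at 26.9, 29.1, 25.6 and 40.8 FPKM with HectD3. LacZ 1, LacZ 2 and HectD3 4 were again the highest, and the log2 difference was -0.28 (standard error 0.24, adjusted p = 0.756 from limma). Because Cpt1a spread more than Cpt1b, the Cpt1b to Cpt1a ratio was 1.94, 1.90 and 1.96 in LacZ 1, LacZ 2 and HectD3 4 and 2.75 to 3.06 in the other 5 libraries. Cpt2, which regenerates acyl-CoA inside the mitochondrion, was at 33.6, 30.7, 12.8 and 14.5 FPKM with LacZ and at 15.8, 20.8, 17.2 and 28.6 FPKM with HectD3. Slc25a20, the carnitine-acylcarnitine exchanger of the inner membrane, ran from 44.8 to 66.2 FPKM with LacZ and from 51.4 to 65.9 FPKM with HectD3.

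The acyl-CoA dehydrogenases, which open each round of oxidation and differ in the chain length they accept, included the gene with the narrowest range within LacZ. Acadl, for long chains, was the second most abundant of the 39 genes, at 277, 277, 264 and 258 FPKM with LacZ and at 268, 283, 293 and 289 FPKM with HectD3. Its log2 difference was 0.07 (standard error 0.06, adjusted p = 0.748 from limma), and the highest and lowest library of a group differed by no more than 1.09-fold. Acadvl, for very long chains, was at 97.3 to 138 FPKM with LacZ and 102 to 119 FPKM with HectD3. Acadm, for medium chains, was at 97.3 to 127 and 101 to 117 FPKM, and Acads, for short chains, at 39.2 to 71.0 and 43.8 to 56.9 FPKM. Acads had the widest spread of the 4 within LacZ, 1.81-fold.

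The later steps of each round are run for long chains by the trifunctional protein, whose subunits are Hadha and Hadhb, and for shorter chains by Echs1, Hadh and Acaa2. Hadha and Hadhb lie head to head on chromosome 6, Hadhb from 27555412 to 27582995 on the minus strand and Hadha from 27589657 to 27629175 on the plus strand of the deposited table, whose genome build the sources used here do not name. Their RefSeq starts in build GRCr8 are 301 bases apart, so that the promoter windows, 250 bases before to 50 after each start, share 200 bases. The windows are shown because the shared stretch lies before the start of both genes. A link of this stretch to their levels was not tested. Capitals mark the CCAAT box (CCAAT) and the core motif of nuclear receptors (AGGTCA) on either strand, Hadha at chr6:31907551-31907850 (plus) and Hadhb at chr6:31907451-31907750 (minus). Both marked matches lie after the start, by 34 bases in Hadha and 42 in Hadhb, and outside the shared stretch.
Hadha: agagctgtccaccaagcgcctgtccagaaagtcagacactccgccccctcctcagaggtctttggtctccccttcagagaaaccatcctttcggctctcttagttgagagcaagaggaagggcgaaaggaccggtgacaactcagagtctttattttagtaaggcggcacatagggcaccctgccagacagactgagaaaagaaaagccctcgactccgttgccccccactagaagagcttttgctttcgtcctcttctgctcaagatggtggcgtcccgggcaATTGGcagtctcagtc
Hadhb: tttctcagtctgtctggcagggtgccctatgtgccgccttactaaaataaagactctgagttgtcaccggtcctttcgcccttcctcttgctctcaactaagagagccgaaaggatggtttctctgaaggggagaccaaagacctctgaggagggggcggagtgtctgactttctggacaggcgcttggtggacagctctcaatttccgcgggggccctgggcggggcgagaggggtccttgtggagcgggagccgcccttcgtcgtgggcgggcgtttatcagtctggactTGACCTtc

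Hadha was at 205, 205, 149 and 157 FPKM with LacZ and at 164, 178, 168 and 191 FPKM with HectD3. Hadhb was at 238, 240, 189 and 188 FPKM with LacZ and at 208, 217, 214 and 263 FPKM with HectD3. The Hadhb to Hadha ratio stayed between 1.16 and 1.27 in the LacZ libraries and between 1.22 and 1.38 in the HectD3 libraries, highest in HectD3 4. Hadh, the short-chain 3-hydroxyacyl-CoA dehydrogenase on chromosome 2 from 236353445 to 236395067, had the widest range within LacZ of the 39 genes. Its level was 117, 106, 25.6 and 31.2 FPKM in LacZ 1 to 4, a 4.55-fold range, and 34.3, 47.7, 36.7 and 72.9 FPKM in HectD3 1 to 4. The means were 69.96 ± 48.2 and 47.9 ± 17.7 FPKM (SD, n = 4 each), and the log2 difference of -0.29 was smaller than its standard error of 0.50 (adjusted p = 0.874 from limma). Without LacZ 1 the difference was 0.05 and without LacZ 2 it was 0.01. Echs1, the short-chain enoyl-CoA hydratase, was at 22.2 to 51.8 FPKM with LacZ and 23.8 to 41.1 FPKM with HectD3, and Acaa2, the mitochondrial thiolase, at 60.3 to 121 and 66.6 to 111 FPKM. All 5 of these genes had LacZ 1, LacZ 2 and HectD3 4 as their 3 highest libraries.

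The auxiliary enzymes prepare double bonds of unsaturated fatty acids for oxidation, and HectD3 4 was the highest or second highest of the 8 libraries in each. Decr1, the 2,4-dienoyl-CoA reductase, was at 125, 137, 107 and 96.7 FPKM with LacZ and at 111, 122, 108 and 174 FPKM with HectD3, so that HectD3 4 was the highest of all 8 libraries. Ech1, a dienoyl-CoA isomerase, was at 297, 340, 147 and 164 FPKM with LacZ and at 184, 213, 163 and 316 FPKM with HectD3. Eci1, an enoyl-CoA isomerase, was at 137, 137, 92.1 and 91.7 FPKM with LacZ and at 108, 112, 116 and 143 FPKM with HectD3. In Ech1 and Eci1 the groups overlapped, with LacZ 3 or LacZ 4 the lowest library of the 8. Eci2, a related isomerase, ran from 56.4 to 82.2 FPKM with LacZ and from 60.6 to 82.8 FPKM with HectD3.

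Electrons from the dehydrogenases pass to the electron transfer flavoprotein, made of Etfa and Etfb, and on to its membrane oxidoreductase, Etfdh. Etfa was at 180, 178, 138 and 138 FPKM with LacZ and at 143, 146, 155 and 173 FPKM with HectD3. Etfb was at 240, 228, 159 and 162 FPKM with LacZ and at 175, 182, 182 and 219 FPKM with HectD3. Both subunits were highest in LacZ 1 and LacZ 2, with HectD3 4 next. Etfdh was at 59.8 to 109 FPKM with LacZ and 69.6 to 87.5 FPKM with HectD3.

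The ketone genes departed from this order, because HectD3 4 did not lie above the other HectD3 libraries. Bdh1, the mitochondrial 3-hydroxybutyrate dehydrogenase that opens ketone use, lies on chromosome 11 from 72578533 to 72614176. Its level was 6.30, 4.50, 4.40 and 3.90 FPKM in LacZ 1 to 4 and 2.91, 3.64, 3.75 and 3.37 FPKM in HectD3 1 to 4. The 4 HectD3 libraries all lay below the 4 LacZ libraries, although the highest HectD3 and the lowest LacZ library were close. The mean was 4.78 ± 1.05 FPKM for LacZ and 3.42 ± 0.376 FPKM for HectD3 (SD, n = 4 each), and the log2 difference was -0.37 (standard error 0.14, unadjusted p = 0.0261, adjusted p = 0.671 from limma). The unadjusted p stayed under 0.05 in 16 of 22 alternatives, and among those where it did not were limma without LacZ 1 (unadjusted p = 0.0560) and without HectD3 1 (unadjusted p = 0.0727), while the adjusted p ran from 0.327 to 1. Oxct1, the CoA transferase that commits ketone bodies to oxidation, lies on chromosome 2 from 53859737 to 54007756. It was at 194, 187, 118 and 121 FPKM with LacZ and at 110, 109, 130 and 113 FPKM with HectD3. LacZ 1 and LacZ 2 stood above all other libraries, while LacZ 3 and LacZ 4 lay within the range of the HectD3 libraries. The log2 difference was -0.39 (standard error 0.17, unadjusted p = 0.0502, adjusted p = 0.699 from limma), and it was -0.04 between LacZ 3 and 4 and HectD3 1 to 3, a contrast picked once the libraries had been seen.

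Among the genes of lipid droplets and triglyceride, Plin2, the common coat protein of droplets, was more abundant than Plin5, the coat protein of oxidative tissues that tethers droplets to mitochondria. Plin2 was at 68.9, 68.7, 39.6 and 39.9 FPKM with LacZ and at 41.3, 47.3, 37.3 and 63.7 FPKM with HectD3. Plin5 was at 5.56, 5.57, 1.56 and 1.74 FPKM with LacZ and at 1.34, 1.85, 1.17 and 4.40 FPKM with HectD3. Within each virus Plin5 thus varied more than Plin2, by 3.57-fold with LacZ and 3.77-fold with HectD3, and its log2 difference was -0.49 (standard error 0.40, adjusted p = 0.745 from limma). Plin2 exceeded Plin5 12.4-fold in LacZ 1 and LacZ 2, 14.5-fold in HectD3 4 and 23.0- to 31.9-fold in the other libraries. Pnpla2, the adipose triglyceride lipase that also works in heart, was at 15.9 to 19.7 FPKM with LacZ and 14.8 to 17.7 FPKM with HectD3. Dgat1 and Dgat2 make triglyceride in the last step of its synthesis. Dgat1 was at 25.4, 27.5, 26.1 and 25.5 FPKM with LacZ and at 31.6, 25.2, 24.8 and 26.7 FPKM with HectD3, and Dgat2 was at 2.34, 1.97, 2.12 and 1.68 FPKM with LacZ and at 1.73, 2.15, 1.95 and 2.50 FPKM with HectD3. Pnpla2, Dgat1 and Dgat2 did not have LacZ 1, LacZ 2 and HectD3 4 as their 3 highest libraries.

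Pdk2 and Pdk4, kinases that switch off pyruvate dehydrogenase and so spare glucose when fatty acids are used, spread widely. Pdk2 was at 80.7, 74.7, 24.8 and 26.2 FPKM with LacZ and at 29.9, 45.2, 33.6 and 59.9 FPKM with HectD3. Pdk4 was at 32.3, 20.4, 7.62 and 8.65 FPKM with LacZ and at 6.48, 13.7, 9.43 and 14.1 FPKM with HectD3, with a log2 difference of -0.44 (standard error 0.43, adjusted p = 0.773 from limma). Pdk2 was more abundant than Pdk4 in all 8 libraries, by 2.50- to 3.66-fold with LacZ and 3.29- to 4.61-fold with HectD3. Mlycd, malonyl-CoA decarboxylase, which removes the inhibitor of carnitine palmitoyltransferase 1, was at 73.8, 80.7, 40.9 and 40.7 FPKM with LacZ and at 44.8, 47.4, 36.8 and 56.3 FPKM with HectD3. Its log2 difference was -0.29 (standard error 0.24, adjusted p = 0.747 from limma).

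Acyl-CoA thioesterases release free fatty acids from CoA. Acot2, the mitochondrial enzyme, lies on chromosome 6 from 107460668 to 107467487, next to Acot1, the cytosolic enzyme, from 107485249 to 107493798, and as near copies they may share reads. Acot2 was at 12.7, 15.2, 9.15 and 10.7 FPKM with LacZ and at 12.9, 17.2, 14.6 and 15.6 FPKM with HectD3. All HectD3 libraries lay above all LacZ libraries but LacZ 2, and the log2 difference was 0.33 (standard error 0.15, unadjusted p = 0.0595, adjusted p = 0.708 from limma). Acot1 was at 1.06, 0.835, 0.550 and 0.655 FPKM with LacZ and at 0.658, 1.03, 0.962 and 1.17 FPKM with HectD3, a log2 difference of 0.14 (standard error 0.13, adjusted p = 0.765 from limma). Acot13, a thioesterase of the mitochondrion, followed the order of most genes instead, at 74.8, 78.7, 29.7 and 27.4 FPKM with LacZ and at 36.2, 40.1, 37.6 and 59.3 FPKM with HectD3.

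Ucp2, a carrier of the inner mitochondrial membrane from the family of uncoupling proteins, was the gene with the smallest p of the 39. It lies on chromosome 1 from 165506361 to 165512744. Its level was 138, 150, 142 and 142 FPKM in LacZ 1 to 4 and 167, 177, 156 and 185 FPKM in HectD3 1 to 4. Each HectD3 library lay above each LacZ library, and LacZ 1 and LacZ 2 did not stand apart from LacZ 3 and LacZ 4. The mean was 143 ± 4.82 FPKM for LacZ and 171 ± 12.2 FPKM for HectD3 (SD, n = 4 each), and the log2 difference was 0.25 (standard error 0.07, unadjusted p = 0.00537, adjusted p = 0.548 from limma). The unadjusted p stayed under 0.05 in each of the 23 alternatives, at 0.00122 to 0.0414, and the adjusted p ran from 0.127 to 0.997. Ucp2 is also made by macrophages, whose markers summed to 83.1 to 110 FPKM with HectD3 and 76.4 to 102 FPKM with LacZ. Their log2 differences were 0.29 for Adgre1, 0.14 for Cd68 and Aif1, 0.13 for Cd14, 0.05 for Csf1r and -0.29 for Ptprc. Adgre1 was at 11.1 to 13.4 FPKM with HectD3 and 8.97 to 11.6 FPKM with LacZ. Ptprc was at 1.24 to 2.82 and 2.36 to 2.99 FPKM. The part of macrophages in the level of Ucp2 was not tested.

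**Figure D3:**
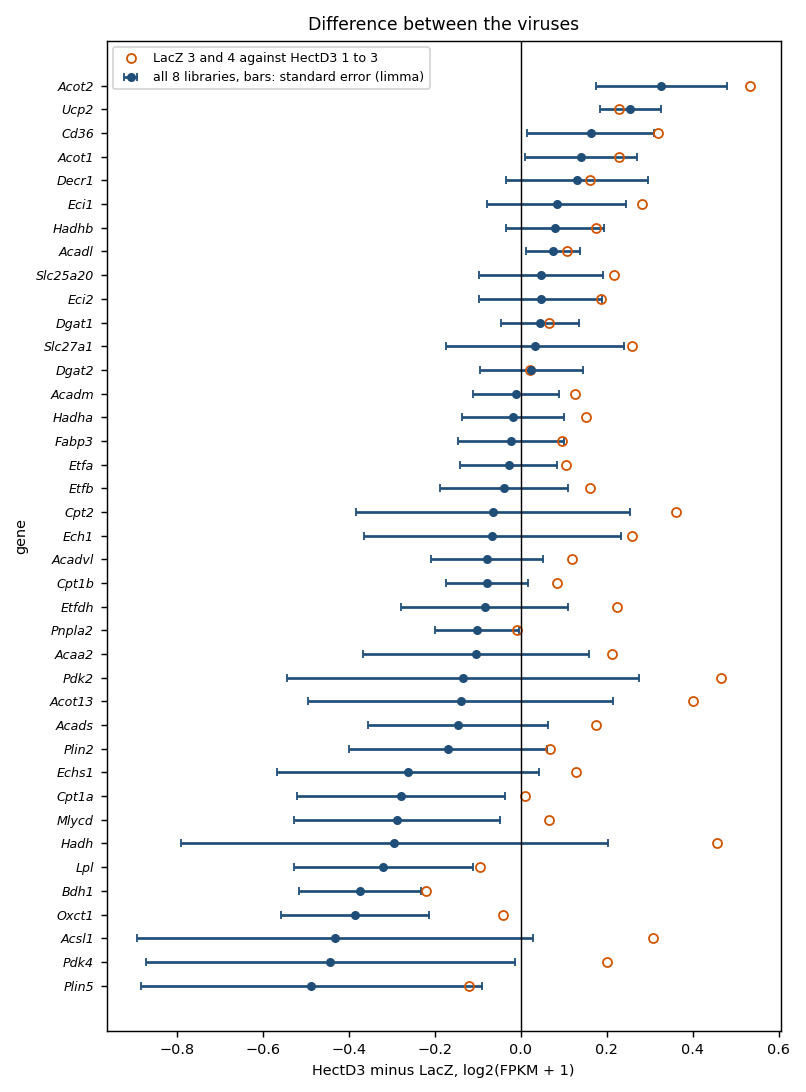
HectD3 minus LacZ on the log2(FPKM + 1) scale for the 39 genes, over all 8 libraries (filled, bars are the limma standard error) and for LacZ 3 and 4 against HectD3 1 to 3 (open, no error shown). Over all libraries 26 genes lie below 0, and 5 do in the smaller comparison.

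When LacZ 1, LacZ 2 and HectD3 4 were left out, a choice made after the libraries were seen, 34 of the 39 genes lay above 0, beside 56.2% of all genes, and the median log2 difference was 0.16. At an unadjusted p under 0.05, 17 of the 39 were then higher and 0 lower, beside 5.16% of all genes higher and 4.32% lower, and 0 passed the adjusted p. The 17 were Cd36, Cpt2, Slc25a20, Acads, Hadha, Hadhb, Hadh, Acaa2, Eci1, Eci2, Ech1, Etfb, Etfdh, Pdk2, Acot2, Acot13 and Ucp2. Eci1 was then at 91.7 to 92.1 FPKM with LacZ and 108 to 116 FPKM with HectD3. The libraries left out include the highest 2 of the 4 LacZ libraries in most of these genes but only 1 HectD3 library, so leaving them out moves the difference up by construction. With the first principal component as a covariate, also chosen later, 16 were higher and 1 lower at the unadjusted p, beside 7.79% of all genes higher and 6.17% lower, and 0 passed the adjusted p. This component was computed from the same values and sets LacZ 1, LacZ 2 and HectD3 4 apart. The fit is thus not separate from leaving those libraries out.

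Other genes of fatty acid metabolism were read from lists for comparison, and 0 of them passed the adjusted p in limma. Over all genes tested the median was -0.02, and 21.5% had LacZ 1, LacZ 2 and HectD3 4 as the highest libraries. At the unadjusted p, 4.28% of all genes were lower and 2.87% were higher. The 21 genes of peroxisomal oxidation, which shortens very long and branched chains, had a median log2 difference of -0.02. Of these, 13 had LacZ 1, LacZ 2 and HectD3 4 as the highest libraries, and 0 passed the unadjusted p in either direction. Abcd4 had a log2 difference of -0.15, Hacl1, a lyase of branched chains, 0.17, and Slc25a17, a peroxisomal carrier, 0.10. Of 27 genes of branched-chain amino acid and related acyl-CoA oxidation, with a median of -0.07, 22 had those libraries highest, and 1 was lower and 0 higher at the unadjusted p. This gene was Acss1, which makes acetyl-CoA from acetate in the mitochondrion. It was at 15.4, 15.9, 4.16 and 3.84 FPKM with LacZ and at 2.85, 2.42, 2.45 and 2.55 FPKM with HectD3, with no overlap and a log2 difference of -1.36 (standard error 0.41, adjusted p = 0.584 from limma). HectD3 4 thus did not share the high level of LacZ 1 and LacZ 2. Dbt, a subunit of the branched-chain dehydrogenase complex, had -0.35, Auh, a hydratase of leucine breakdown, 0.10, and Acad9, a dehydrogenase that also serves complex assembly, 0.04.

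Of 16 further genes of uptake and activation, with a median of -0.04, 6 had those 3 libraries highest, beside 21.5% of all genes. At the unadjusted p 0 were lower and 1 was higher, beside 4.28% and 2.87% of all genes. The gene was Fabp4, with a log2 difference of 0.22 (standard error 0.10, adjusted p = 0.693 from limma). Angptl4, an inhibitor of lipoprotein lipase, was lowest in LacZ 1 and LacZ 2 but highest in HectD3 4, at 2.80, 3.01, 6.60 and 8.47 FPKM with LacZ and at 8.07, 9.64, 4.47 and 9.96 FPKM with HectD3, a log2 difference of 0.60. Slc27a3 had -0.24 and Acsl3, a synthetase of the endoplasmic reticulum, -0.23. Of 20 further lipid droplet and triglyceride genes, with a median of -0.01, 9 had those libraries highest and 0 passed the unadjusted p. Plin4, a droplet coat protein, was at 7.22, 6.45, 1.76 and 1.81 FPKM with LacZ and at 1.25, 2.24, 1.17 and 3.53 FPKM with HectD3 (log2 difference -0.68), and Abhd5, the activator of Pnpla2, at 12.7 to 15.1 and 15.5 to 17.7 FPKM (0.20). Agpat5 had -0.16 and Agpat4 0.25, both acyltransferases of glycerolipid synthesis.

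Of 18 genes of fatty acid synthesis, 5 had LacZ 1, LacZ 2 and HectD3 4 highest, beside 21.5% of all genes, and the median was -0.12. At the unadjusted p 1 was lower and 0 were higher, beside 4.28% and 2.87% of all genes. The gene was Srebf1, a transcription factor that drives this synthesis, at 14.6, 11.7, 7.52 and 7.98 FPKM with LacZ and at 6.28, 6.09, 6.16 and 9.20 FPKM with HectD3 (log2 difference -0.50, standard error 0.21, adjusted p = 0.689 from limma). Scd, which desaturates stearoyl-CoA, had -0.30, the elongase Elovl1 0.19 and the desaturase family member Fads3 0.38. LacZ 1 and LacZ 2 held 60.2 and 62.3 FPKM of Fads3, LacZ 3 and LacZ 4 held 161 and 151 FPKM and HectD3 4 held 92.2 FPKM, lower where most oxidation genes were higher. Of 8 further ketone genes, with a median of -0.03, 2 had those libraries highest and 0 passed the unadjusted p. Bsg, a partner of the monocarboxylate carriers, had a log2 difference of 0.11, Acat1, a mitochondrial thiolase, -0.15, and Slc16a7, a monocarboxylate carrier, -0.33. Of 11 genes of pyruvate import and pyruvate dehydrogenase, with a median of -0.02, 4 had those libraries highest, and 0 were lower and 1 was higher at the unadjusted p. The gene was Mpc2, a subunit of the mitochondrial pyruvate carrier, at 171 to 188 FPKM with LacZ and 195 to 218 FPKM with HectD3 (log2 difference 0.19, standard error 0.07, adjusted p = 0.662 from limma). Pdk1 had -0.50, Pdha1 -0.14 and Pdhx 0.14.

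Of 23 regulators of these genes, 7 had LacZ 1, LacZ 2 and HectD3 4 as the highest libraries, beside 21.5% of all genes. Their median log2 difference was -0.13. At the unadjusted p 3 were lower and 1 was higher, beside 4.28% and 2.87% of all genes. Ppara, the receptor that fatty acids activate, was at 10.9, 8.77, 3.54 and 3.76 FPKM with LacZ and at 2.69, 2.57, 3.14 and 4.01 FPKM with HectD3 (log2 difference -0.80, standard error 0.31, adjusted p = 0.677 from limma). HectD3 4 lay above LacZ 3 and LacZ 4 but far from LacZ 1 and LacZ 2. Esrrb, an estrogen-related receptor, was at 3.68, 3.48, 1.84 and 1.96 FPKM with LacZ and at 1.06, 0.526, 0.812 and 0.937 FPKM with HectD3, without overlap (log2 difference -1.0, standard error 0.19, adjusted p = 0.269 from limma). Pparg, the receptor of fat cells, was low, at 0.518 to 1.04 FPKM with LacZ and 1.17 to 1.40 FPKM with HectD3, also without overlap (log2 difference 0.32, standard error 0.12, adjusted p = 0.671 from limma). Rxrb, a partner of these receptors, had 0.07.

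**Figure D4:**
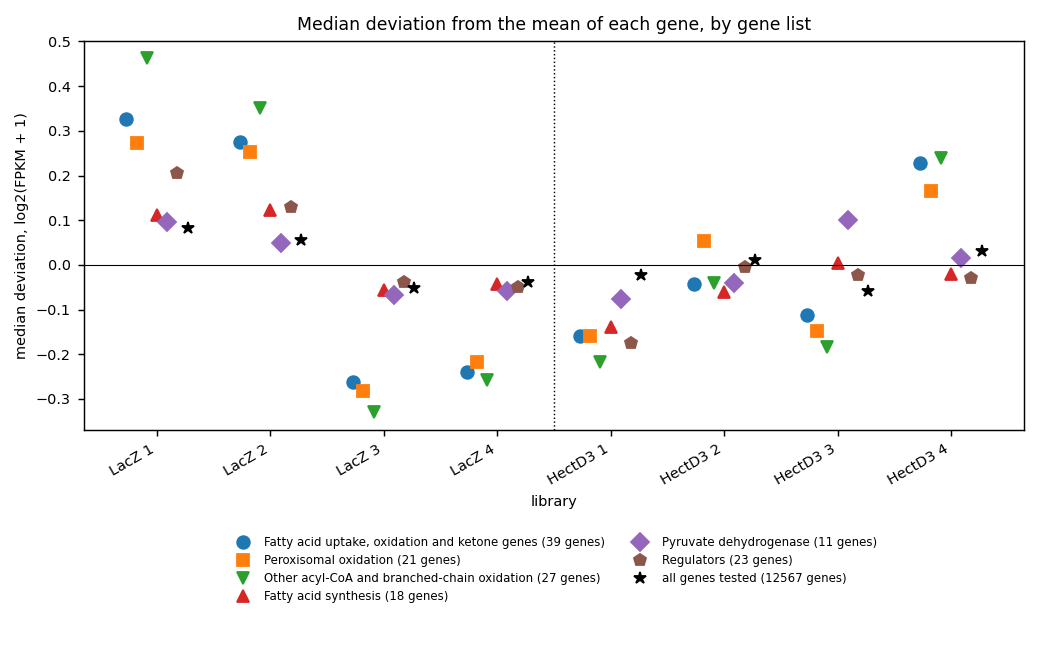
Median over the genes of each list of log2(FPKM + 1) minus the mean of the gene over the 8 libraries, for each library (LacZ left of the dotted line). The 39 genes have medians of 0.33 in LacZ 1, 0.27 in LacZ 2 and 0.23 in HectD3 4, near those of peroxisomal oxidation. The medians of all genes tested, in which rising and falling genes cancel, lie between -0.06 and 0.08.

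Promoter windows from RefSeq (build GRCr8) were matched for 31 of the 39 genes and searched on both strands for 5 motifs, whose shares are given beside those of all 27457 genes with a window. The estrogen-related receptor element (TNAAGGTCA) was in 0 of the 31 and in 1.26% of all, and the PPAR direct repeat (AGGTCANAGGTCA) in 0 and in 0.0619%. The core motif that both contain (AGGTCA) was in 7, or 22.6%, beside 16.9% of all. The E-box (CACGTG) was in 2, or 6.45%, beside 7.08%, and the CCAAT box in 13, or 41.9%, beside 39.6%. Pdk2, at chr10:80483863-80484162 on the minus strand, is shown as an example. Its window held matches of 2 kinds, the E-box and 3 CCAAT boxes (read as ATTGG on the strand shown), which are in capitals. Pdk2 varied 3.25-fold within LacZ. Plin5, which varied 3.57-fold there, and Slc27a1, which varied 1.81-fold, also had matches of 2 kinds in a window. Hadh, which varied 4.55-fold, had no match of the 5 motifs. A link of the matches to the levels was not tested.
Pdk2: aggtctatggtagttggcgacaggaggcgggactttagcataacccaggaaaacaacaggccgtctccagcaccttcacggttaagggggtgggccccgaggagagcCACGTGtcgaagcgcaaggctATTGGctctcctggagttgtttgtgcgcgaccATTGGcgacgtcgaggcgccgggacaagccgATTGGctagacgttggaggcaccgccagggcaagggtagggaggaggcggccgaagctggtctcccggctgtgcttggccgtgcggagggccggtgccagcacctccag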

How the data were processed

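Poly(A)-enriched, strand-specific libraries were sequenced on an Illumina HiSeq instrument. Per the methods, the authors used cutadapt to trim and HISAT2 to align reads, assembled and quantified transcripts with StringTie and Ballgown, and deposited FPKM per transcript and library. The sources used here give no versions of these tools, no genome build and no annotation release. FPKM keeps no read counts, and low values shared no common step (at most 3.85% of the low transcripts of a pair of libraries had 1 ratio within 0.1%), so library depth is unknown and counting intervals are not given. Library totals of FPKM were 546642 to 563051 with LacZ and 554960 to 595172 with HectD3. No transcript had the same value above 0 in any pair of libraries.

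The 15976 transcripts were summed by symbol to 12784 genes. For the 12567 genes averaging 0.5 FPKM or more, log2(FPKM + 1) was compared between HectD3 and LacZ, 4 libraries each, with limma 3.58.1 (trend) in R 4.3.3, and p-values were adjusted by Benjamini-Hochberg over all genes tested. A difference on this scale understates the change of low genes. Group labels came from GEO, and 2 alternatives, on the choice of libraries and on a covariate, were added after the data were seen beside 21 planned ones. The 40 genes, the comparison lists and the markers were chosen with earlier results of these data known. Values per library were given for the 12 of the 39 genes with the smallest p, which also got a difference and its test, for the 12 most abundant and for isoform pairs, and from each other list the 2 genes with the smallest p in each direction were named, 2 of which are not reported here. Other genes with values per library, Hadh and its test among them, were picked with their values in view. The limma script was tested on simulated data. Promoter windows of 250 bases before to 50 after the start came from RefSeq, 31 of 39 symbols matched, and motif positions were found by exact search.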

Additional observations from a re-analysis of the deposited data

Results flagged for a closer look

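Among 140 groups of 4 libraries, from the 39 genes, Hectd3 and named genes of other lists, 7 held a library that stood apart. Its gap to its nearest neighbour took up nearly the whole range of the group. For independent groups chance gives about 1 group in 20. These groups come from the same 8 libraries and are not independent, so the count of 7 cannot be judged against that rate. HectD3 4 was the library that stood apart in Lpl (129 FPKM), Hadhb (263 FPKM), Etfb (219 FPKM), Acot13 (59.3 FPKM) and Srebf1 (9.20 FPKM), in each case above the other HectD3 libraries. Elovl1 stood apart in HectD3 1 (49.7 FPKM, above the others), and Abcd4 in HectD3 3 (1.61 FPKM, below the others). HectD3 4 also had the lowest Hectd3 level of its group, 161 FPKM.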

How the results depend on the processing

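Under the 21 planned and 2 later alternatives, 0 of the 39 genes passed the adjusted p in any. The count of genes lower at the unadjusted p, 1 in the comparison as reported, was 0 with a filter of 5 FPKM, library weights, an ordinary linear model, the replicate block or LacZ 3 and 4 against HectD3 1 to 3 (3.70%, 5.42%, 1.96%, 3.58% and 4.32% of all genes), 2 with TPM, median-ratio scaling or quantile normalization (5.85%, 4.33% and 3.69%), and 0 to 2 when 1 library was left out. The count of genes higher, also 1, was 2 with median-ratio scaling, quantile normalization or the most abundant transcript (3.28%, 3.57% and 3.0% of all genes), 5 with library weights (6.12%), 17 for LacZ 3 and 4 against HectD3 1 to 3 (5.16%), 16 with the first principal component as covariate (7.79%), and 1 to 3 when 1 library was left out. The median difference of -0.07 became 0.13 with library weights, 0.16 for LacZ 3 and 4 against HectD3 1 to 3 and 0.10 with the covariate, and ran from -0.156 to 0.0516 when 1 library was left out. The cause was not tested.

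Single genes changed direction. With library weights Mlycd was 0.0331, Pdk4 0.125, Hadh 0.349, Fads3 -0.0704 and Acat1 0.0989. For LacZ 3 and 4 against HectD3 1 to 3, Mlycd was 0.0661, Cpt1a 0.0091, Pdk4 0.20, Hadh 0.456, Angptl4 -0.0696, Fads3 -0.131 and Acat1 0.157. With the covariate Pdk4 was 0.032, Hadh 0.287, Fads3 -0.0194 and Acat1 0.0769, and with TPM Acad9 was -0.0093. When 1 library was left out, Hadh ran from -0.663 to 0.0516, Acad9 from -0.0416 to 0.136 and Rxrb from -0.0597 to 0.244. In all, 127 of 893 values of the 39 genes under an alternative lay on the other side of 0, in 29 genes; the cause was not tested.

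Over all genes, 538 were lower and 361 higher at the unadjusted p, which became 747 and 176 with TPM, 681 and 769 with library weights and 464 and 449 with quantile normalization. Neither the labels nor the methods state whether same-numbered libraries were paired. The deviations of same-numbered libraries correlated at -0.37, -0.01, 0.34 and -0.61. Such correlations also reflect the large differences between libraries within a group, so a pairing cannot be told from them. With the replicate block 450 genes were lower and 167 higher, and of the 39 genes 0 were lower and 1 was higher, with a median of -0.07. The depth of the libraries is unknown, so counting error at low levels such as those of Acot1 and Plin5 could not be given.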

Other observations

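Cd36 was the sum of 9 annotated transcripts, and its libraries differed in which of them held the FPKM. Cd36-201 was at 0.779, 74.8, 0.624 and 0.481 FPKM in LacZ 1 to 4 and at 48.3, 55.4, 34.0 and 58.4 FPKM in HectD3 1 to 4. Cd36-004 was at 47.2, 49.7, 48.4 and 46.9 FPKM with LacZ and at 57.9, 60.3, 65.9 and 55.9 FPKM with HectD3, without overlap of the groups. These transcripts were chosen after their values were seen. Transcripts of 1 gene overlap, so reads can be assigned to either, and the summed level of Cd36, at 139 to 231 FPKM with LacZ and 166 to 206 FPKM with HectD3, overlapped between the groups.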
